A study of Mus musculus with 9 samples.

Results

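The genes described here encode lysosomal enzymes, lysosomal membrane proteins and regulators of the lysosome, measured in intestinal epithelial cells of newborn mouse pups. The 36 symbols were listed by function, and each gene was represented by the probe set that carries its symbol alone and has the highest mean over the 9 arrays. Of the 36, 35 had such a probe set, among 18193 genes in all, and Cd63 was not analysed here. Pups were taken on postnatal day 0 and fell into 3 groups of 3 arrays each. Rescue pups were Tfr1 IEC-KO;ROSA26 Tfr1R654A/+, which adds to the knockout 1 allele of the receptor at the ROSA26 locus that carries R654A, a change known to weaken transferrin binding. Knockout pups were Tfr1 IEC-KO, without the transferrin receptor Tfr1 in intestinal epithelium, and control pups were Tfr1fl/fl. No pup received a treatment. The sources used here do not give the driver of the deletion, the sex of the pups or the number of pups behind an array, so p-values measure the spread between arrays, which may be technical. Cells of small intestine and proximal colon were released together in 2 mM EDTA over 30 min and passed through a 70 µm mesh, with no sort by a surface marker named.

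Lysosomes are acidic compartments in which hydrolases break down proteins, glycans and lipids, and their membrane holds the proton pump, transporters and ion channels. In newborn rodents the gut lumen digests protein poorly, and enterocytes of the distal small intestine take up milk macromolecules whole and digest them in large lysosomes until weaning. The transcription factor Tfeb, when it enters the nucleus, raises many lysosomal genes through a promoter element built on the E-box CACGTG. Transferrin-bound iron is set free in acidic endosomes, and the channel Mcoln1 is known to let iron and calcium out of late endosomes and lysosomes.

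The promoter windows below are shown because the E-box is the known link between Tfeb and this gene set. They are a selection from members with large changes in knockout cells, not a ranking by change. Cln3 is shown although it did not pass the test given below. Tfeb (log2 change -0.997) and Ctsz (-0.86) changed more than Gaa (-0.73) but are not shown, and their windows held no CACGTG. RefSeq windows (GRCm38.p6) of 250 bases before to 50 bases after an annotated start were matched for 30 of the 35 genes, by symbol. Each sequence runs 5′ to 3′ on the gene's strand, and capitals mark every CACGTG, which reads the same on both strands.
Mcoln1, chr8:3500269-3500568, plus strand: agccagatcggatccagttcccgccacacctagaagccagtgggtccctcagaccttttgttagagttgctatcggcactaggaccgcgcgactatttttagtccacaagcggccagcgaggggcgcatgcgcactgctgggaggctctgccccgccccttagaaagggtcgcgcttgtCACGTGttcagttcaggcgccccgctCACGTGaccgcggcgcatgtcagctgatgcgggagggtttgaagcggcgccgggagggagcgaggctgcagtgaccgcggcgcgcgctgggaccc
Glb1, chr9:114400828-114401127, plus strand: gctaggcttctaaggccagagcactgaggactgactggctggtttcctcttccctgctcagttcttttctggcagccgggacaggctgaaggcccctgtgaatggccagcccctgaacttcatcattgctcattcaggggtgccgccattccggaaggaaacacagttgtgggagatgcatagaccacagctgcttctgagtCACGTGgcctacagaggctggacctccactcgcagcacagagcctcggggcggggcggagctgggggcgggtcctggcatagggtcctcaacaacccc
Gaa, chr11:119267713-119268012, plus strand: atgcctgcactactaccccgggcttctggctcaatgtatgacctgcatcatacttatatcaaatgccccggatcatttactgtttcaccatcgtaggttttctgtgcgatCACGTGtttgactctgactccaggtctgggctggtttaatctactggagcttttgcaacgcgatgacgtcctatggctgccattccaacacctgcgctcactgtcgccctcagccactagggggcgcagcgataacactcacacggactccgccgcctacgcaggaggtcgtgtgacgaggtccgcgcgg
Cln3, chr7:126583187-126583486, minus strand: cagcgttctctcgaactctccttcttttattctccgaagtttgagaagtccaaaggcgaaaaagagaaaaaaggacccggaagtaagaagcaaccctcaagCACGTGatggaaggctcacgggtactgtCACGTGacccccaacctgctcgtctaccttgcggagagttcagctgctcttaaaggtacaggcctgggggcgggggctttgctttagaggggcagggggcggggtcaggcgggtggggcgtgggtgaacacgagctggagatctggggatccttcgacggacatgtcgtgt
Mcoln3, chr3:146121541-146121840, plus strand: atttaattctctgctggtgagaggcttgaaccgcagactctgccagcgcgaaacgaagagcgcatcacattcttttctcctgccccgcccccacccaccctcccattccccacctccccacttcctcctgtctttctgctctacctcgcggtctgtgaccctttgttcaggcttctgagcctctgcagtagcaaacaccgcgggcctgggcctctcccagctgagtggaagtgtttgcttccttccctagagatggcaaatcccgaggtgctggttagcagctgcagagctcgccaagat
Mcoln1 held 2 E-boxes, whose first bases lay 71 and 45 bases before the start, and Glb1 held 1, at 48 bases. Gaa held 1 at 140 bases, and the window of Cln3 that held any had 2, at 149 and 121 bases. The letters CACGTG did not occur in the Mcoln3 window.

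Across the set, 10 of the 30 genes with a window held CACGTG (33.3%), against 2187 of all 27025 genes with a window (8.09%), where a gene counted if any of its windows held the letters. The longer form CACGTGAC, searched on both strands and overlapping the first, was found in 8 of the 30 (26.7%), against 2.55% of the 27025. These 27025 genes were not limited to those measured on the arrays. The 10 genes were Ctsa, Ctsd, Ctsl, Glb1, Naglu, Gaa, Arsa, Lamp1, Mcoln1 and Cln3, and Lamp1 alone among them held 4 E-boxes. Of the 9 members that were lower in knockout cells, as given below, 8 had a window and 3 of these held an E-box, and of the other 26 members 22 had a window and 7 held one. The letters were thus present in members that changed and in members that did not pass the test, and a match is a description of the sequence, not a bound site.

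**Figure D1:**
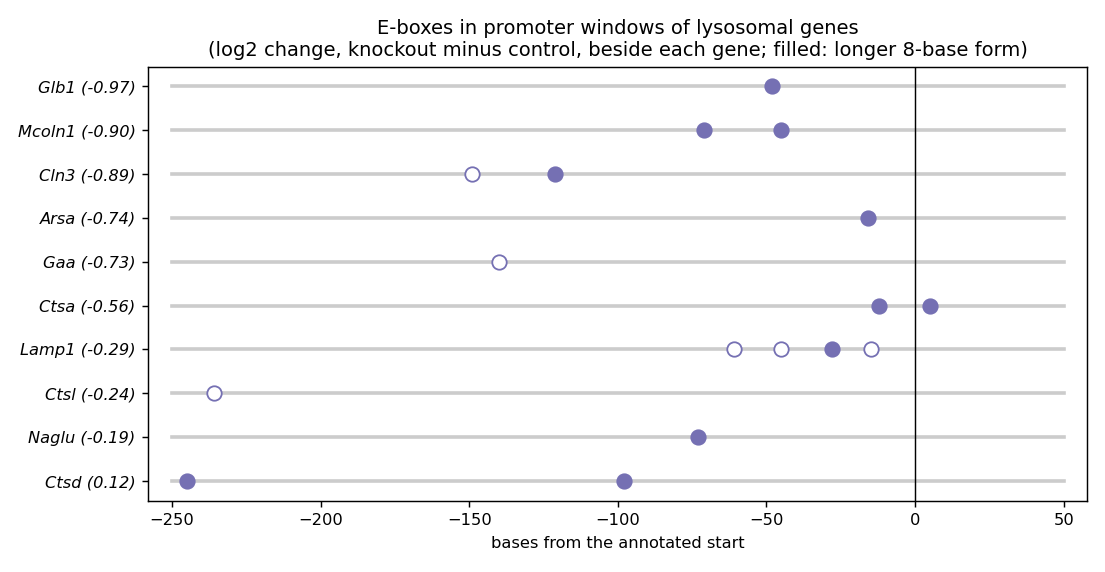
E-boxes (CACGTG) in the promoter windows of the 10 lysosomal genes that held any; the x axis is the distance in bases from the annotated start, and filled circles mark the longer form CACGTGAC. Genes are ordered by their log2 change between knockout and control, from Glb1 (-0.97) to Ctsd (0.12). Genes without an E-box are not plotted, so the order cannot show whether E-boxes go with the change.

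The arrays were first compared with their labels. The targeted gene Tfrc was read by 3 probe sets that carry its symbol alone, and any others were not analysed here. The brightest read 10.91, 10.22 and 11.11 in rescue, 10.76, 11.16 and 9.07 in knockout and 10.21, 10.78 and 9.88 in control arrays, and so did not separate the groups. The other two averaged 10.85 and 8.83 in rescue, 5.88 and 4.31 in knockout and 6.15 and 4.67 in control arrays. They mark the rescue arrays; the parts of the transcript they read were not analysed here, so the deletion itself was not checked. Xist, made from the inactive X, read 6.45 to 6.83 in rescue, 12.02 to 12.75 in knockout and 12.10 to 12.31 in control arrays. The Y-linked Eif2s3y read 9.36 to 9.70, 2.34 to 2.82 and 2.69 to 2.88 in the same order, so rescue and sex cannot be told apart in either comparison of rescue arrays. None of the 35 genes lies on X or Y.

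All 10 epithelial markers, among them Epcam and Vil1, lay above the dimmest 40% of genes in each group. The mean of 15 fibroblast markers ranged from 7.41 to 7.91 in rescue, 7.24 to 10.66 in knockout and 6.55 to 7.20 in control arrays, and that of 20 leukocyte markers from 6.54 to 6.69, 6.94 to 7.88 and 6.31 to 6.64. Knockout replicates 1 and 2 carried the high values, and replicate 3 lay near control: relative to the control mean, the fibroblast median was 3.73, 3.18 and 0.29 in these arrays, taken as replicates 1, 2 and 3. Between knockout and control, 7 of the 20 leukocyte markers rose and 2, Csf1r and Lcp1, fell; the list holds Cd68, Laptm5 and Lyz2, which are themselves lysosomal. Of the epithelial markers 5 rose and 1 fell. Of all genes 5.29% rose and 8.77% fell. In knockout replicates 1, 2 and 3 the medians of smooth muscle markers (3.71, 2.30 and 0.14), of neuronal and glial markers (2.91, 1.46 and 0.20) and of endothelial markers (1.65, 0.85 and 0.17) had the same order as the fibroblast median. The median of 6 ileum markers was 0.80, 0.95 and 0.58 in these arrays. Between knockout and control 2 of the 6 were called higher and 0 lower, but only 3 changes were above 0 and 3 were below. In 3 markers every knockout array lay above every control array, and in 1 every knockout array lay below (12.7% and 19.7% of all genes). Fabp6, the bile acid binding protein of the ileum, averaged 11.49 in knockout and 7.76 in control arrays (limma adjusted p = 0.0098), and Slc10a2, the ileal bile acid transporter, 5.90 and 3.50 (0.0015), both of these in the dimmest 40% of genes. The part of the gut region sampled in the results on lysosomal genes was not tested. The general leukocyte gene Ptprc was in the dimmest 40% of genes in rescue and control arrays.

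Part of the lysosomal genes were lower in knockout cells than in control cells, and none passed the test as higher. By limma's test over all genes with Benjamini-Hochberg adjustment, 9 of the 35 fell (25.7%) and 0 rose, while 8.77% of all genes fell and 5.29% rose, 14.1% in all. The 9 were the channels Mcoln3 and Mcoln1, the transcription factor Tfeb, the glycosidases Glb1, Hexa and Gaa, the sulfatase Galns, the cathepsin Ctsz and the cholesterol carrier Npc2. Dim genes, which are seldom called, lower the shares of all genes. With the dimmest 40% left out, 10 of the 35 members fell (28.6%) and 0 rose. In that fit 14.7% of the genes kept fell and 7.26% rose. The change was below 0 in 30 of the 35, with a median of -0.38 (log2), against -0.04 for all genes. In 13 of the 35 (37.1%) every knockout array lay below every control array, a pattern shown by 19.7% of all genes, and in 0 did every knockout array lie above, as in 12.7% of all genes (32.4% both ways). In bulk RNA, fewer lysosome-rich cells and less transcript per cell cannot be told apart.

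**Figure D2:**
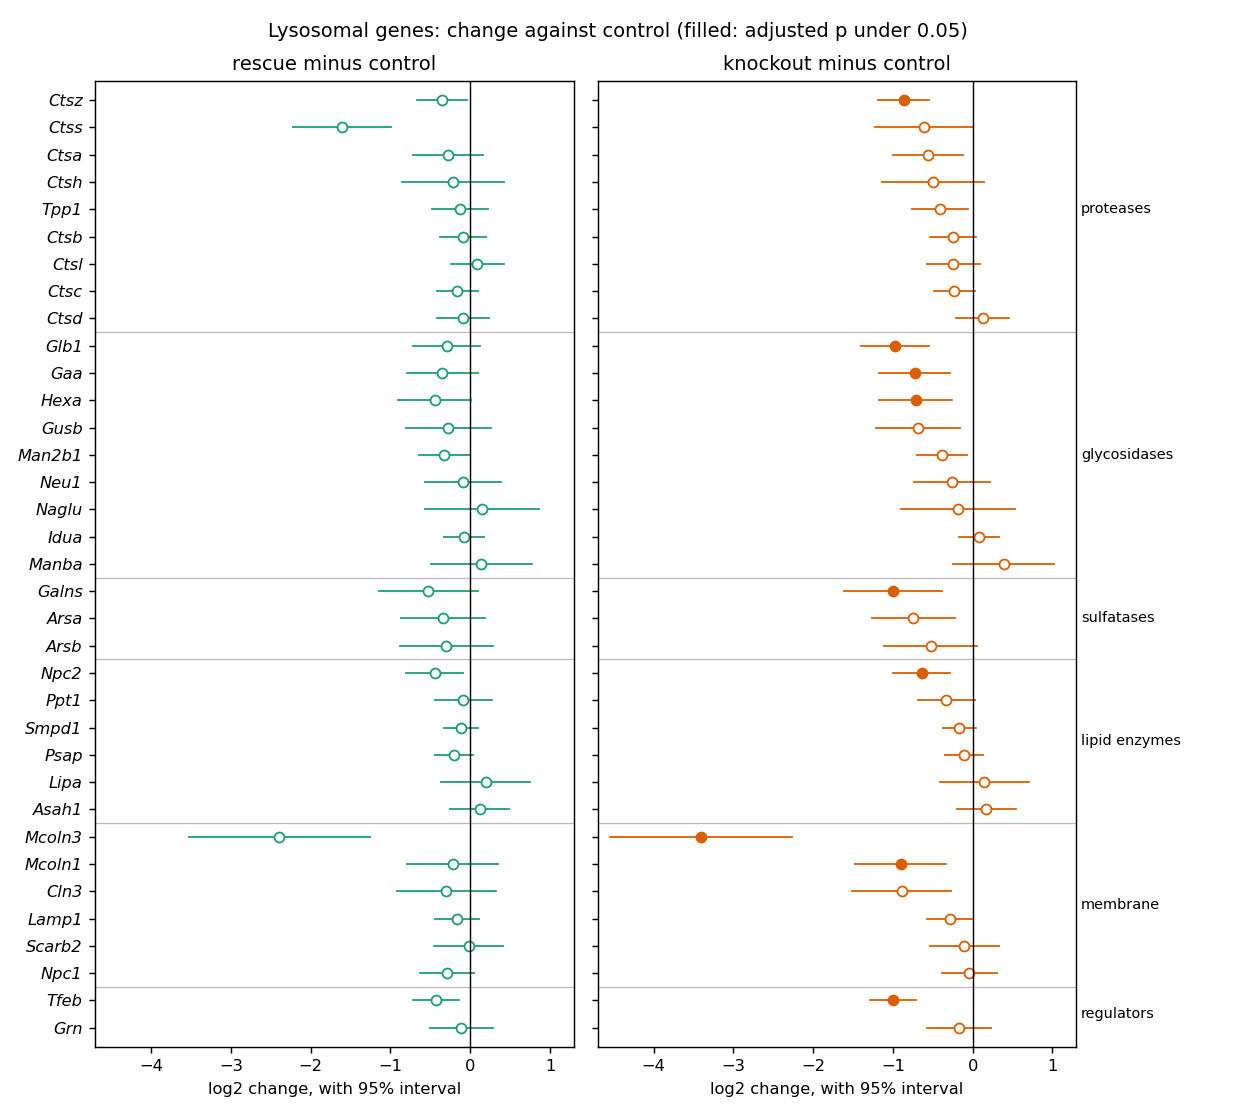
Log2 change of each of the 35 lysosomal genes with its 95% interval from limma, for rescue minus control (left) and knockout minus control (right), from 3 arrays per group; filled circles passed the adjusted threshold. The filled circles are the 9 genes lower in knockout, with Mcoln3 farthest from 0 at -3.41, and no circle is filled on the left.

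The endolysosomal cation channels gave the largest change. Mcoln3, a channel of the mucolipin family that neonatal enterocytes are known to express, read 6.49, 5.38 and 6.95 in rescue arrays, 4.89, 4.71 and 6.19 in knockout arrays and 9.08, 8.10 and 8.82 in control arrays. All rescue and all knockout arrays lay below all control arrays. Mcoln3 fell by 3.41 ± 0.50 in knockout cells (at least 10.6-fold, limma adjusted p = 0.0043), a lower bound because its knockout mean lay in the dimmest 40% of genes. Its second, dimmer probe set fell by 0.97 ± 0.19 (limma adjusted p = 0.014 over all probe sets). Mcoln1, the family member of late endosomes and lysosomes in most cells, read 9.34, 9.09 and 9.66 in rescue arrays, 8.54, 8.31 and 9.17 in knockout arrays and 9.87, 9.28 and 9.59 in control arrays. It fell by 0.90 ± 0.25 (1.87-fold, limma adjusted p = 0.046), with every knockout array below every control array and rescue overlapping control. Over all probe sets, its 3 probe sets had differences of -0.90, -0.70 and -0.68 (limma adjusted p = 0.052, 0.12 and 0.029).

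Among the other membrane proteins no member passed. Cln3, a membrane protein whose loss causes a neuronal storage disease, read 8.27, 8.02 and 8.70 in rescue arrays, 7.51, 7.43 and 8.28 in knockout arrays and 8.91, 8.28 and 8.70 in control arrays. Knockout replicate 3 matched the lowest control array to 2 decimals, and the change of -0.89 ± 0.27 missed the threshold (limma adjusted p = 0.064). Lamp1, a main glycoprotein of the lysosomal membrane, had a difference of -0.29 with a 95% interval of -0.57 to -0.01. Scarb2, which carries glucocerebrosidase to lysosomes, had a difference of -0.10 (-0.54 to 0.33), and the cholesterol transporter Npc1 one of -0.04 (-0.38 to 0.30).

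Of the regulators, Tfeb read 8.37, 8.40 and 8.41 in rescue arrays, 7.70, 7.71 and 8.07 in knockout arrays and 8.94, 8.67 and 8.87 in control arrays. The 3 groups did not overlap, with knockout lowest and control highest. Tfeb fell by 0.997 ± 0.13 in knockout cells (2.00-fold, limma adjusted p = 0.0024). Grn, the gene of progranulin, a secreted protein that is cut into granulins in lysosomes, had a difference of -0.17 (-0.57 to 0.23), and its knockout and control arrays overlapped. Dimmer probe sets of Grn had differences of -0.26 and -0.42 (limma adjusted p = 0.41 and 0.35 over all probe sets).

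Of 9 glycosidases, enzymes that trim sugars from glycoproteins and glycolipids, 3 fell and 0 rose, beside 8.77% and 5.29% of all genes. Glb1, the acid beta-galactosidase, read 12.20, 12.19 and 11.83 in rescue arrays, 11.30, 11.10 and 11.79 in knockout arrays and 12.47, 12.22 and 12.42 in control arrays. All knockout arrays lay below all rescue and all control arrays, and Glb1 fell by 0.97 ± 0.19 (1.96-fold, limma adjusted p = 0.012). Hexa, the alpha subunit of beta-hexosaminidase, read 12.44, 12.36 and 12.20 in rescue arrays, 12.10, 11.66 and 12.45 in knockout arrays and 13.01, 12.54 and 12.78 in control arrays. It fell by 0.71 ± 0.20 (limma adjusted p = 0.049). Gaa, the acid alpha-glucosidase that digests glycogen, read 10.13, 9.97 and 9.82 in rescue arrays, 9.59, 9.28 and 9.93 in knockout arrays and 10.62, 10.04 and 10.32 in control arrays. It fell by 0.73 ± 0.20 (limma adjusted p = 0.043), and its second, dimmer probe set fell by 0.82 (limma adjusted p = 0.014 over all probe sets). For Hexa and Gaa the knockout arrays lay below the control arrays but overlapped the rescue arrays.

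The other 6 glycosidases did not pass. The beta-glucuronidase Gusb (-0.68 ± 0.23, limma adjusted p = 0.087) and the alpha-mannosidase Man2b1 (-0.38 ± 0.14, limma adjusted p = 0.1) were nearest to the threshold. The sialidase Neu1 had a difference of -0.26, Naglu, which trims heparan sulfate, one of -0.19 and the iduronidase Idua one of 0.08. Dimmer probe sets of Neu1 had differences of -0.68 and -0.06 (limma adjusted p = 0.16 and 0.75 over all probe sets). Manba, the beta-mannosidase, had the highest difference of all members at 0.39 (-0.24 to 1.03) and read 8.35, 8.71 and 9.52 in knockout against 8.42, 8.51 and 8.47 in control arrays. Its high value came from knockout replicate 3.

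Of the 3 sulfatases, which remove sulfate from glycans and lipids, 1 fell, beside 8.77% of all genes. Galns, which acts on keratan sulfate, read 10.45, 10.11 and 10.11 in rescue arrays, 9.62, 9.27 and 10.38 in knockout arrays and 11.03, 10.47 and 10.75 in control arrays. It fell by 0.997 ± 0.27 (limma adjusted p = 0.044), with every knockout array below every control array and overlap with rescue. A second Galns probe set, far dimmer, had a difference of -0.21 (limma adjusted p = 0.25 over all probe sets). The arylsulfatases Arsa (-0.74 ± 0.23, limma adjusted p = 0.067) and Arsb (-0.53 ± 0.26, limma adjusted p = 0.21) did not pass. Dimmer probe sets of Arsb had differences of 0.10 and -1.07 (limma adjusted p = 0.52 and 0.052 over all probe sets).

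Of 9 proteases only the cathepsin gene Ctsz passed in knockout cells by its brightest probe set, while 14.1% of all genes passed. Ctsz, a carboxypeptidase, read 12.93, 12.73 and 12.78 in rescue arrays, 12.27, 12.05 and 12.60 in knockout arrays and 13.15, 13.13 and 13.22 in control arrays. The 3 groups did not overlap, and Ctsz fell by 0.86 ± 0.14 (1.82-fold, limma adjusted p = 0.0064). Its other two probe sets, which share the gene's symbol, fell by 1.04 and 1.195 (limma adjusted p = 0.0089 and 0.0048 over all probe sets). The main endopeptidases were not called: the difference was -0.24 (-0.57 to 0.09) for Ctsl, -0.24 (-0.53 to 0.04) for Ctsb and 0.12 (-0.20 to 0.45) for the aspartic protease Ctsd. Dimmer probe sets of Ctsb had differences from -0.315 to -0.533 (limma adjusted p of 0.055 or more over all probe sets). Ctsl read 13.35, 13.15 and 13.71 in knockout against 13.73, 13.56 and 13.64 in control arrays, so that knockout replicate 3 fell inside the control range. Ctsa, Ctsh and Tpp1, which trim peptides from their ends, had differences of -0.56, -0.50 and -0.41 (limma adjusted p = 0.091, 0.28 and 0.11), and the dipeptidyl peptidase Ctsc one of -0.23. The second, dimmer probe set of Tpp1 fell by 0.775 (limma adjusted p = 0.015 over all probe sets).

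The lipid group had the median nearest to 0 of the 6 roles, at -0.14. Of 6 enzymes and lipid carriers 1 fell, beside 8.77% of all genes. Npc2, the soluble partner of Npc1 in cholesterol export, read 12.63, 12.41 and 12.07 in rescue arrays, 12.38, 12.12 and 12.03 in knockout arrays and 12.89, 12.71 and 12.85 in control arrays. It fell by 0.64 ± 0.16 (limma adjusted p = 0.031), and rescue replicate 3 lay within the knockout range. Of its other probe sets, 1 fell by 0.78 (limma adjusted p = 0.042 over all probe sets), and a dimmer pair had differences of -0.35 and -0.05 (0.50 and 0.83). The acid lipase Lipa (0.14, -0.41 to 0.70), the acid ceramidase Asah1 (0.17, -0.19 to 0.54), the acid sphingomyelinase Smpd1 (-0.17, -0.38 to 0.04) and the saposin precursor Psap (-0.11, -0.35 to 0.13) did not pass. Nor did Ppt1, which removes palmitate from proteins (-0.33 ± 0.16, limma adjusted p = 0.2), although its knockout arrays lay below its control arrays.

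**Figure D3:**
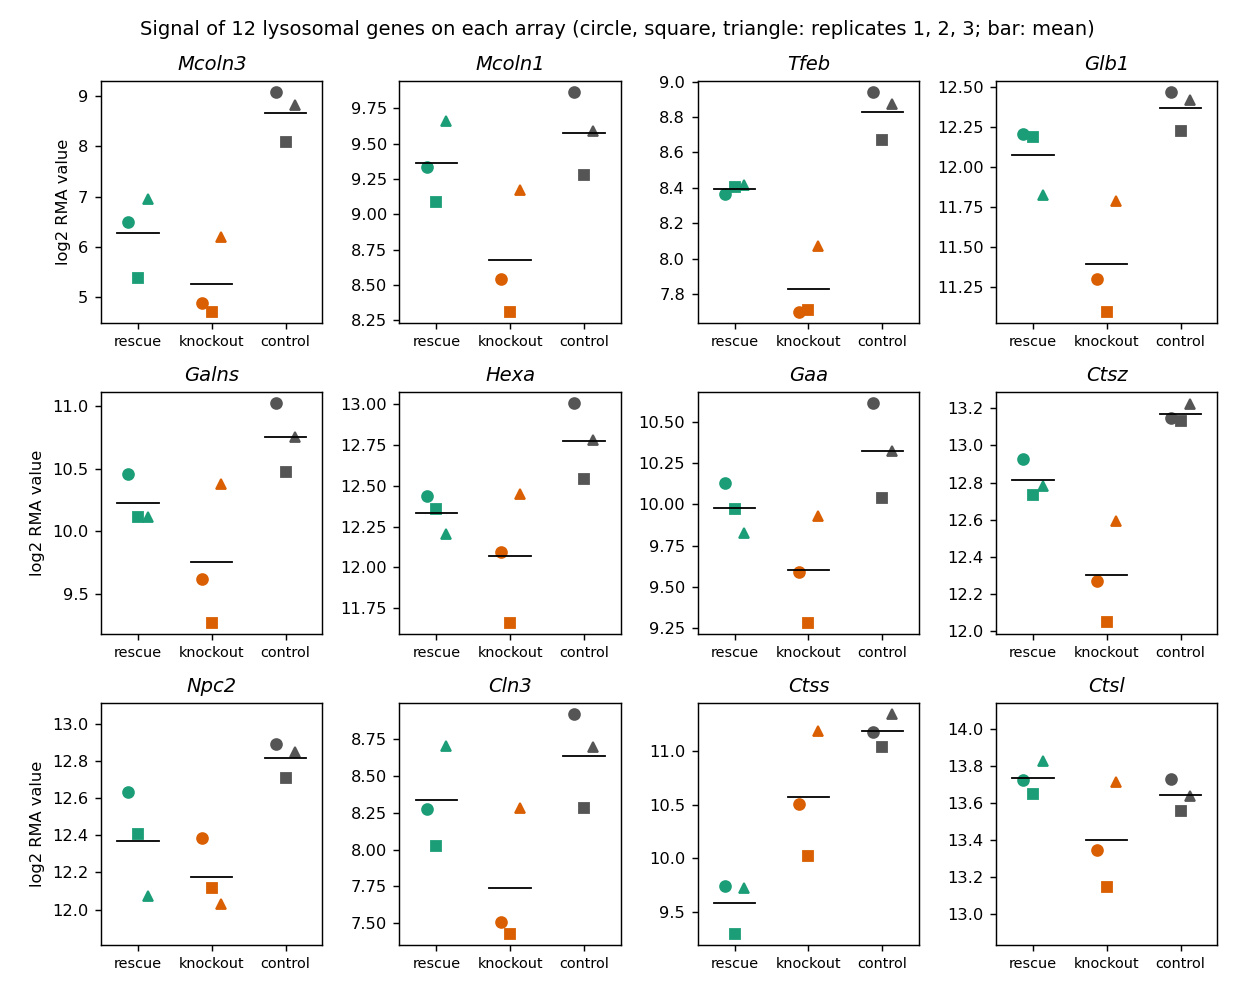
Log2 RMA values of 12 lysosomal genes on each array, for rescue, knockout and control; symbols mark replicates, bars mark means, and each panel has its own axis. Knockout replicate 3 (triangle) is the highest knockout array in 11 of the 12 panels, all but Npc2, and the Ctss panel has rescue lowest.

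The knockout arrays differed among themselves. Replicate 3 was the highest knockout array in 27 of the 35 genes (77.1%), against 47.2% of all genes, and in 8 of the 9 that fell. The median of the set stood -0.17, -0.26 and -0.18 from the control mean in rescue replicates 1, 2 and 3, -0.36, -0.63 and -0.15 in knockout replicates 1, 2 and 3, and 0.10, -0.15 and 0.05 in control replicates 1, 2 and 3. Knockout replicate 3 thus equalled control replicate 2. Within groups, the median SD of a member was 0.153 in rescue, 0.313 in knockout and 0.142 in control arrays, against 0.140, 0.225 and 0.104 for all genes. The order of the knockout arrays in fibroblast markers (3.73, 3.18 and 0.29) and in leukocyte markers (1.72, 1.46 and 0.33) also set replicate 3 apart; the part of these cells in the falls was not tested.

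When knockout replicate 3 stood alone for its genotype, 4 of the 35 genes were lower (Mcoln3, Tfeb, Ctsz and Arsb) and 2 higher (Lipa and Manba). These are 11.4% and 5.71% of the members, against 8.26% and 5.82% of all genes in the same fit. The change of Mcoln3 was then -2.48 (limma adjusted p = 0.039), that of Tfeb -0.76 (0.017) and that of Ctsz -0.57 (0.027), with the lone array assumed to vary like the other groups. With the fibroblast mean as a covariate, Mcoln3, Tfeb, Npc2 and Arsb were lower (11.4%, against 6.48% of all genes), and Lipa and Manba higher (5.71%, against 4.41% of all genes). With the leukocyte mean as a covariate, an alternative chosen after the data were seen, none of the 9 stayed past the threshold: Mcoln3 had a difference of -2.06 (limma adjusted p = 0.16) and Tfeb one of -0.60 (0.082), and Galns turned to 0.06 (0.93). That fit called 1 other member lower, Arsb, and 1 higher, Manba (2.86% each), against 4.19% and 3.01% of all genes. The leukocyte mean differed between every knockout and every control array, so the covariate and the genotype overlap.

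Leaving out single arrays moved the count of calls among members and among all genes. Every member called in these fits was lower in knockout. The count was 18 without knockout replicate 3, 5 and 4 without knockout replicates 1 and 2, 3 without control replicate 1 or 3, 6 without control replicate 2, and 5, 4 and 5 without rescue replicates 1, 2 and 3. The share of all genes lower was 14.7% without knockout replicate 3, against 51.4% of the members, and it was 3.83%, 4.18% and 3.12% without control replicates 1, 2 and 3, against 8.57%, 17.1% and 8.57% of the members. It was 5.35% and 7.04% without knockout replicates 1 and 2 (members 14.3% and 11.4%), and 7.68%, 6.86% and 7.65% without rescue replicates 1, 2 and 3 (members 14.3%, 11.4% and 14.3%). Mcoln3, Tfeb and Ctsz passed in each of these 9 fits and Glb1 in 7, Npc2 passed in 4, Gaa in 2, and Hexa, Galns and Mcoln1 in 1 each. With the mean of all probe sets of a gene, 9 members again passed, all lower and 7 of them shared: Galns (-0.60, limma adjusted p = 0.054) and Npc2 (-0.46, 0.11) did not pass, while Cln3 (-0.60, 0.038) and Tpp1 (-0.59, 0.029) did.

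Other genes that serve the lysosome were also tested between knockout and control. Over 6 lists with 107 measured genes, 30 fell (28.0%) and 3 rose, beside 8.77% and 5.29% of all genes. The count of 33 was 63 (55 lower) without knockout replicate 3 and 20 (14 lower) with it as the one knockout array. It was 19 and 21 without knockout replicates 1 and 2, and 15, 22 and 17 without control replicates 1, 2 and 3. With the dimmest 40% of genes left out, 28.8% of 104 genes fell and 1.92% rose, beside 14.7% and 7.26% of the genes kept. The sorting list, which marks and carries new enzymes to lysosomes, had 7 of 16 lower and 0 higher. Gnptab, a subunit of the enzyme that builds the mannose phosphate tag, fell by 1.34 ± 0.14 (2.53-fold, limma adjusted p = 0.0011) and read 8.40, 8.26 and 8.40 in rescue arrays, 7.26, 7.75 and 7.46 in knockout arrays and 8.74, 8.78 and 8.96 in control arrays. The 3 groups did not overlap. Nagpa, which uncovers the tag, fell by 0.72, the adaptor Gga2 by 1.11 and Cln6, which helps enzymes leave the endoplasmic reticulum, by 1.19 (limma adjusted p = 0.0033, 0.0081 and 0.0083).

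Of 19 other membrane proteins 6 fell and 0 rose, beside 8.77% and 5.29% of all genes. The sialic acid exporter Slc17a5 read 12.50, 12.47 and 12.62 in rescue arrays, 11.36, 10.84 and 11.54 in knockout arrays and 12.88, 12.66 and 12.89 in control arrays. It fell by 1.56 ± 0.17 (2.96-fold, limma adjusted p = 0.0015), with every knockout array below every other array. Laptm4b, Slc36a1, an amino acid transporter, and Tmem192 fell by 0.74, 1.12 and 0.65 (limma adjusted p = 0.0083, 0.025 and 0.03). The proton pump had 3 of 16 subunits lower and 0 higher, beside the same shares of all genes. With the dimmest 40% of genes left out, those shares were 14.7% lower and 7.26% higher. Tcirg1 fell by 0.87, Atp6v1c1 by 0.68 and Atp6v0d1 by 0.39 (limma adjusted p = 0.0084, 0.013 and 0.039), and Atp6v1f had a difference of -0.40 (limma adjusted p = 0.089).

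The remaining hydrolases moved both ways, with 4 of 23 lower and 2 higher, beside 8.77% and 5.29% of all genes. The sulfatases Arsk and Sgsh fell by 0.98 and 0.85 (limma adjusted p = 0.0042 and 0.0065). Ggh, which shortens folate chains, rose by 1.03 and the cathepsin Ctsk by 0.75 (limma adjusted p = 0.013 and 0.0087); Ctsk in control arrays and Arsk in knockout arrays lay in the dimmest 40% of genes, so their changes are lower bounds. Among 23 genes of TFE factors, of mTORC1 signalling on the lysosome and of autophagy, 5 fell and 1 rose (8.77% and 5.29% of all genes). Lamtor4 and Lamtor5, parts of the Ragulator complex that holds mTORC1 on the lysosome, fell by 0.89 and 0.60, and Flcn, which acts on the Rag proteins beside them, by 0.84 (limma adjusted p = 0.0011, 0.0061 and 0.017). The gene that rose was the autophagy gene Atg9b, which read 7.36, 7.99 and 7.42 in rescue arrays, 9.75, 10.05 and 10.07 in knockout arrays and 6.12, 6.49 and 6.25 in control arrays and rose 12.7-fold (limma adjusted p = 9.9e-05).

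The genes by which suckling enterocytes take up milk protein had 5 of 10 lower and 0 higher, beside 8.77% and 5.29% of all genes. The list did not move 1 way: 8 changes were below 0 and 2 above. In 5 genes every knockout array lay below every control array, and in 2 every knockout array lay above (19.7% and 12.7% of all genes). Mamdc4, the endotubin of apical endosomes, read 13.35, 13.67 and 13.45 in rescue arrays, 12.04, 12.07 and 12.43 in knockout arrays and 13.83, 13.51 and 13.73 in control arrays. It fell by 1.51 ± 0.15 (2.85-fold, limma adjusted p = 9.6e-04), with rescue and control arrays overlapping. Prdm1, a repressor that keeps the suckling programme of the enterocyte, fell by 1.72, the endocytic receptor Lrp2 by 1.91 and the neonatal Fc receptor Fcgrt by 1.10 (limma adjusted p = 0.0064, 0.022 and 0.028). General enterocyte markers had a median difference of -0.03, with 1 of 10 lower and 0 higher (8.77% and 5.29% of all genes). Their mean was 12.989, 13.105 and 13.433 in knockout replicates 1, 2 and 3 and 13.335 to 13.372 in control arrays. In the same knockout arrays the median of the uptake list stood -0.735, -1.074 and -0.204 from the control mean. The part of enterocyte content in these falls was not tested.

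**Figure D4:**
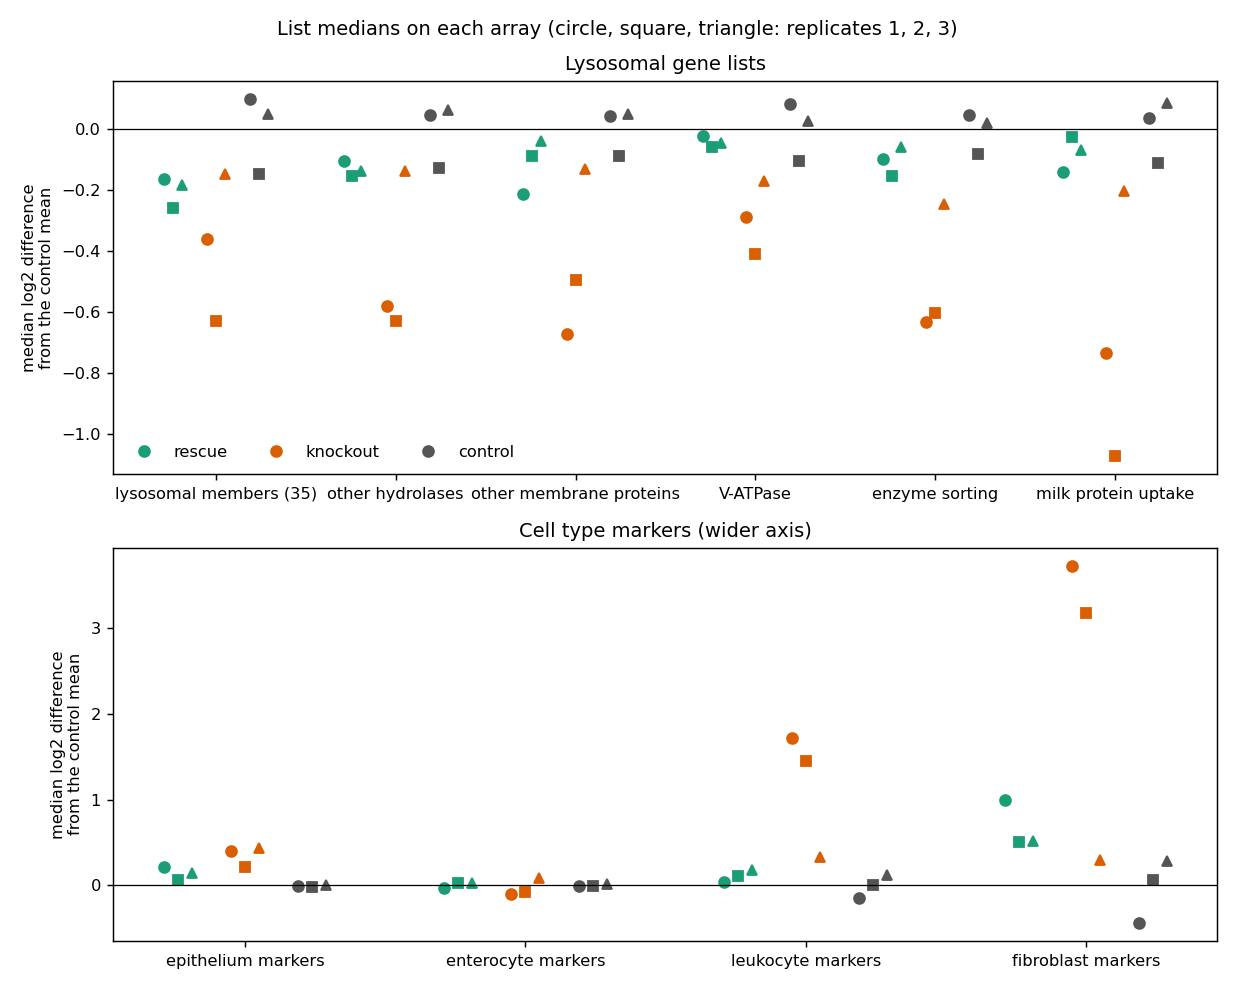
Median over each gene list of the log2 difference from the control mean, on each array, for rescue, knockout and control; symbols mark replicates, and the lower panel has a wider axis. In the upper panel knockout replicates 1 and 2 lie lowest in every list, and in the lower panel the same arrays lie highest in leukocyte and fibroblast markers.

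The comparison of rescue with knockout asks what the R654A receptor changes in cells that lack the normal one; sex differs between these arrays too. Of the 35 lysosomal genes 0 passed limma's test, while 2.31% of all genes passed, 1.23% higher and 1.08% lower. An unadjusted limma p under 0.05 was found for 6 of the 35 and for 3436 of all 18193 genes. The change was above 0 in 28 of the 35, with a median of 0.23, against 0.04 for all genes. Tfeb had a change of 0.57 ± 0.13 (0.28 to 0.85, limma adjusted p = 0.06), Glb1 one of 0.67 ± 0.19 (0.25 to 1.10, limma adjusted p = 0.11) and Ctsz one of 0.51 ± 0.14 (0.19 to 0.83, limma adjusted p = 0.11). In these 3 genes all rescue arrays lay above all knockout arrays, as they did in Smpd1, which makes 4 of 35 (11.4%), against 10.6% of all genes. In 1, Ctss, they lay below (2.86%, against 7.5% of all genes, and 18.1% of all genes both ways). Mcoln3 had 1.01 ± 0.50 (-0.12 to 2.15) and Mcoln1 0.69 ± 0.25 (0.12 to 1.26), both with overlapping arrays; the value of Mcoln3 is a lower bound, since its knockout mean was dim.

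Rescue means lay between those of knockout and control in 9 of the 9 genes that fell in knockout cells, in 27 of the 35 members (77.1%) and in 56.6% of all genes; the choice of the 9 by their knockout values favours this position. Without knockout replicate 3 the comparison called 10 members, 9 higher in rescue (Cln3, Ctsl, Ctsz, Galns, Glb1, Gusb, Mcoln1, Naglu and Tfeb) and 1 lower (Ctss). These are 25.7% and 2.86% of the members, against 6.61% and 8.74% of all genes in that fit. With knockout replicate 3 alone it called 1, Ctss, lower (2.86%, against 2.83% of all genes). Among the 107 genes of the other lysosomal lists 4 rose in rescue cells (3.74%, against 1.23% of all genes) and 1 fell (0.935%, against 1.08%). Those higher were Slc17a5 (1.28, limma adjusted p = 0.011), Gnptab (0.87, 0.021), Lamtor4 (0.63, 0.014) and Mamdc4 (1.31, 0.0058), and Atg9b was lower (-2.37, 0.0017). These 5 became 41 (35 higher) without knockout replicate 3, which is 38.3%, against 15.4% of all genes in that fit. They became 3 and 2 without rescue replicates 1 and 3 (2.8% and 1.87%, against 1.06% and 0.577% of all genes). With only the 2 groups fitted, 0 of the 107 were higher and 1 was lower (0.935%). In that fit 0.044% of all genes were higher and 0.121% lower.

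Ctss, the gene of cathepsin S, a protease best known from antigen-presenting cells, is singled out here after its values were seen. It read 9.74, 9.29 and 9.72 in rescue arrays, 10.51, 10.03 and 11.19 in knockout arrays and 11.18, 11.04 and 11.35 in control arrays. All rescue arrays lay below all other arrays, while knockout and control overlapped. Between rescue and knockout the change was -0.99 ± 0.27 (limma adjusted p = 0.1), and between rescue and control -1.60 ± 0.27 (-2.22 to -0.99, limma adjusted p = 0.084). Neither passed. The second became -1.60 with limma adjusted p = 0.016 when only the 2 groups were fitted. It was also called without knockout replicate 3 (-1.60, limma adjusted p = 0.012), with array weights (-1.71, 0.0034), with the fibroblast covariate (-1.45, 0.036) and with the leukocyte covariate (-1.50, 0.034). Over all alternatives its limma adjusted p ranged from 0.0034 to 0.45, the highest without control replicate 3. The leukocyte marker mean, which includes genes of such cells, was 6.54 to 6.69 in rescue and 6.31 to 6.64 in control arrays.

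The comparison of rescue with control cannot tell what is left of the knockout change from sex, which differs between these arrays too. Of the 35 genes 0 passed limma's test, while 0.126% of all genes passed (0.055% higher, 0.0715% lower). An unadjusted limma p under 0.05 was found for 6 of the 35 and for 1205 of all 18193 genes. The change was below 0 in 30 of the 35, with a median of -0.22, against -0.01 for all genes. In 12 of the 35 (34.3%) every rescue array lay below every control array, a pattern shown by 9.9% of all genes, and in 0 did every rescue array lie above, as in 6.74% of all genes (16.6% both ways). The comparison shares the control arrays with that of knockout and control. Mcoln3 lay farthest from control, at -2.39 ± 0.50 (-3.53 to -1.26, limma adjusted p = 0.17). Tfeb had -0.43 ± 0.13 (-0.72 to -0.14), Npc2 -0.45 (-0.81 to -0.09) and Ctsz -0.35 (-0.67 to -0.04), while Ctsl had 0.09 (-0.24 to 0.42) and Lamp1 -0.16 (-0.44 to 0.12).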

How the data were processed

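Expression was measured on Affymetrix mouse arrays in 9 samples. Each deposited value is the log2 RMA value of a probe set. Per the submitters' processing notes RMA and Partek 6.5 were used; which step each did, and any filter, is not given in the sources used here. Values were used as deposited, with array medians of 5.93 to 6.00. The platform annotation gave 1 symbol to 34958 of 45101 probe sets, several to 932 and none to 9211. After array controls were removed, 34945 probe sets gave 18193 genes, named through RefSeq where Entrez identifiers matched (18032 of 18194). Arrays have no read depth; their number limits the precision, with 0.147 as the median standard error of a log2 difference.

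All 9 arrays entered 1 model of 3 group means in limma 3.58.1 in R 4.3.3 (lmFit, eBayes; two-sided; Benjamini-Hochberg over all genes; threshold 0.05). The test was also run on simulated arrays, in which a gene had the same spread in every group. The measured arrays differ from this, with a median SD over all genes of 0.225 in knockout and 0.104 in control arrays. Motifs were searched in Python 3.11.15. Folds are lower bounds (at least) where the dimmer mean fell among the dimmest 40% of genes in its group. Members and lists were chosen with earlier results of these data known. Array values were printed for members past the threshold, for the 6 with the largest knockout change and for any singled out, and up to 4 genes with the smallest p were named per other list. Alternatives covered single arrays, a replicate block, probe set choice, quantile scaling, dim genes, the groups in the fit, array weights, the variance prior and marker covariates. Of 36 pairs of arrays 0 were identical.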

Additional observations from a re-analysis of the deposited data

How the results depend on the processing

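Of 2079 changes of single members refitted under the alternatives, 1943 kept their side of the threshold, 68 lost a call, 67 gained one and 1 reversed: Galns between knockout and control, at 0.064 with the leukocyte covariate. Among the 1943, 102 changed sign without passing in either fit. Counts of calls are given below for lysosomal members, other lysosomal genes and all genes in turn. Leaving out 1 array gave 3 to 18, 15 to 63 and 936 to 4998 between knockout and control, 0 to 10, 2 to 41 and 105 to 2793 between rescue and knockout, and 0 to 2, 0 to 1 and 2 to 136 between rescue and control. The unaltered counts were 9, 33 and 2559, then 0, 5 and 420, then 0, 0 and 23. Array weights gave 23, 74 and 6395, then 7, 44 and 2453, then 3, 1 and 355. A fit of the 2 groups compared gave 5 members and 1655 genes, then 1 other lysosomal gene (lower in rescue) and 30 genes, then 1, 1 and 149. Quantile scaling gave 5 members between knockout and control. Leaving out dim genes gave 1 other lysosomal gene, and the variance trend 14 genes, between rescue and control. The fibroblast covariate gave 14 other lysosomal genes, then 2, 8 and 932, then 1, 1 and 109. Knockout replicate 3 as the sole knockout array gave 20 other lysosomal genes, then 1 member and 1096 genes, then 1, 1 and 149. The leukocyte covariate, chosen after the data were seen, gave 2, 10 and 1310, then 1, 3 and 725, then 1, 1 and 102. The causes were not tested, except that fewer arrays were fitted where arrays were left out. Replicate numbers did not pair the samples: same-numbered arrays correlated in their deviations from group means with r from -0.22 to 0.40, and 3 of 9 arrays correlated best with their own number. With the replicate block, 257 genes passed between rescue and knockout and 12 between rescue and control, with 1 other lysosomal gene, and 11 members passed between knockout and control. Dim signal limits Mcoln3 in knockout arrays to a bound. Leaving out probe sets with shared-match endings left 28 members, of which 6 passed between knockout and control.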
